A study of Danio rerio with 93 samples.

Results

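Gene expression was measured in single whole zebrafish embryos exposed to 35 μM Disperse Red 9, a methylamino anthraquinone dye of colored smokes, and in the control embryos of the same dye. They are 7 of the 93 embryos of the series, identified by their labels. They comprise the 3 embryos labelled 35 μM (embryos 1, 3 and 4) and the 4 labelled Disperse Red 9 control (embryos 1 to 4). All were wild-type fish of the SPF 5-D strain, freed of the chorion at 4 hpf, exposed in single wells from 6 hpf in medium with 0.64% DMSO, and sampled at 48 hpf. The controls received the solvent and no dye. The other Disperse Red 9 treatment groups of 10, 25, 45 and 55 μM, with 3 embryos each, entered the same fit, and concentrations are nominal. The methods of the study name 4 embryos per treatment and do not list 35 μM for this dye. The results of the study do describe a 35 μM group. The labels were followed.

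Zebrafish embryos of this age are in the middle of building their eyes. Retinal cells leave division and turn on the proteins of phototransduction, in which opsins signal through transducin, a G protein of alpha, beta and gamma subunits, and lens fibre cells fill with crystallins. Head cartilage lays down collagens, trunk muscle is already contracting, and ionocytes in the skin take up sodium and chloride through ATP-driven pumps and cotransporters.

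The libraries were of like depth, with total estimated counts of 31387183 to 40808643 in the 35 μM embryos and 33087616 to 41066527 in the controls. Genes for ribosomal proteins took 1.41% of the CPM in 35 μM embryo 1, against 2.98% and 3.42% in the other exposed embryos and 3.36% to 4.06% in the controls. Mitochondrially encoded genes took 6.83% to 11% at 35 μM and 7.05% to 11.3% in controls, with control embryo 4 at the upper end. Among the other groups of the fit, 25 μM embryo 3 stood apart, with 11.3% from ribosomal protein genes. All 35, 45 and 55 μM libraries carry 1 second index in their labels, which no other library of the series has, and all control, 10 and 25 μM libraries carry another. Between groups on either side of this split, the index and the concentration cannot be told apart. The 47 tested marker genes of 13 tissues were detected in each of the 7 embryos. Of them, 8 were lower and 1 higher at 35 μM at an unadjusted p under 0.05, as 4.47% and 3.53% of all genes were. Median log2 fold changes of 35 μM over control were positive for the lens (0.18) and vessel (0.12) markers and negative for the other tissues. None of the 4 muscle markers reached that p. Their summed level was 4649.4 to 7245.5 CPM at 35 μM and 8629.9 to 9802.0 CPM in controls. That of the 4 notochord and cartilage markers, 3 of them lower, was 1001.2 to 1200.5 CPM and 1481.5 to 1707.1 CPM. In whole embryos, fewer cells of a type and less RNA per cell cannot be told apart.

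More genes were lower than higher at 35 μM among those that passed the test. Of 17869 genes tested with edgeR's quasi-likelihood F test, 17 (0.0951%) were DEGs, that is, they changed by more than 1.5-fold and stayed under 0.05 after Benjamini-Hochberg adjustment. Of these, 13 (0.0728%) were lower, among them a gene of phototransduction, a lens crystallin, a cartilage collagen and a muscle protein. The 4 higher DEGs (0.0224%) were a sodium pump subunit, a cotransporter of the sodium chloride family and a pair of cell division genes. Without a fold change limit and without adjustment, 799 genes (4.47%) were lower and 630 (3.53%) higher at a p under 0.05. The split turned to 683 lower and 778 higher with median-ratio size factors, 824 and 923 with DESeq2, 623 and 661 with at least 10 counts in every embryo, 628 and 718 without control 4, and 1046 and 1354 without 25 μM embryos 3 and 4. In 1330 genes (7.44%) every 35 μM embryo was below every control, and in 1008 (5.64%) above. Levels are given as CPM, the counts of a gene relative to the TMM-scaled size of its library, and log2 fold changes are of 35 μM over control with their SE.

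The DEG count rests on few embryos. Without 35 μM embryo 3 or without embryo 4 no gene passed edgeR's test (1232 and 994 genes had an unadjusted p under 0.05), while without embryo 1 a single gene, syt5b, passed. Without control 1, 2, 3 or 4 the counts were 6, 3, 2 and 10. They were 149 without 25 μM embryos 3 and 4 and 1 without 35 μM embryo 1 and control 4, both chosen after the data were seen. All 17 genes kept their direction in every one of these fits. Their groups do not overlap, so leaving out embryos could hardly turn that direction.

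**Figure D1:**
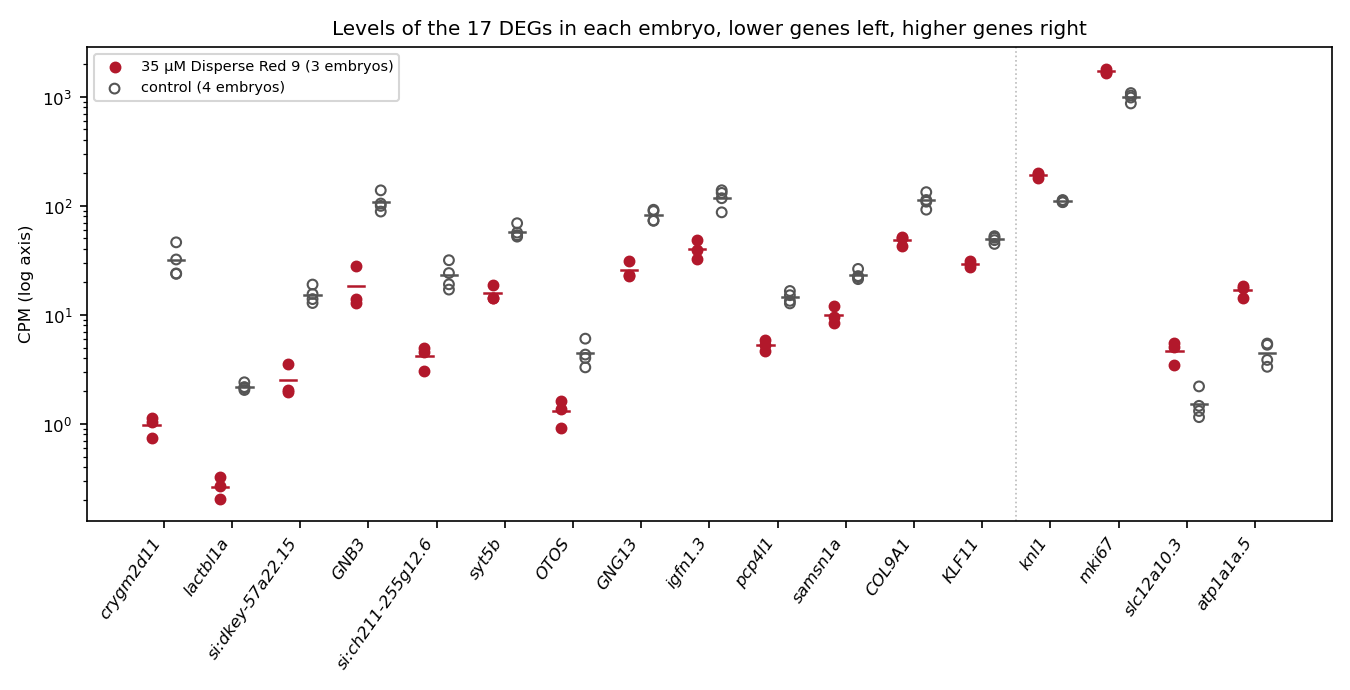
Level of each of the 17 DEGs in each embryo, in CPM on a log axis, with filled points for the 3 embryos at 35 μM, open points for the 4 controls and a line at each group mean. Genes are ordered by log2 fold change and a dotted line parts the 13 lower from the 4 higher; in every gene the 2 groups do not overlap.

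Signaling and vesicle genes were among the lower DEGs, and 1 of them, GNB3, is in the retina list. GNB3, which in mammals is the beta subunit of cone transducin, had 28.2, 12.8 and 13.8 CPM in the 35 μM embryos, against 99.5, 104.6, 88.3 and 138.2 CPM in the controls. Exposed embryo 1 was the nearest to the controls, yet far below the lowest of them. The log2 fold change was -2.56 ± 0.41 (adjusted p = 0.0252). GNG13, a G protein gamma subunit known in mouse from retinal bipolar and taste cells, had 31.1, 23.1 and 22.5 CPM at 35 μM and 72.6, 89.2, 73.3 and 91.7 CPM in controls (-1.68 ± 0.25, adjusted p = 0.0237). The lowest p belonged to syt5b, a synaptotagmin, of the family of calcium sensors for vesicle release. It had 18.8, 14.2 and 14.2 CPM in the 35 μM embryos, against 52.0, 56.6, 53.6 and 69.0 CPM in the controls (-1.88 ± 0.22, adjusted p = 0.0025). Its copy syt5a averaged 1.19 CPM at 35 μM and 1.38 CPM in controls (-0.20, adjusted p = 0.940).

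The list of retina and photoreceptor genes held the largest share of low genes of all 36 lists. Of 44 genes tested, 18 (40.9%, against 4.47% of all genes) were lower at an unadjusted p under 0.05 and none higher, and GNB3 was the only DEG of the list. The list's median log2 fold change was -0.47, beside -0.01 for all genes. With an embryo left out 14 to 18 were lower, and against the controls of the other dyes 12 of 49. Of the other transducin subunits, GNAT1, the rod alpha subunit, averaged 2.06 CPM at 35 μM and 4.40 CPM in controls (-1.09 ± 0.26, adjusted p = 0.122), and GNAT2, the cone alpha subunit, 2.33 and 3.05 CPM (-0.39, adjusted p = 0.834). One copy of GNGT2, the cone gamma subunit, averaged 6.25 CPM at 35 μM and 14.9 CPM in controls (-1.25 ± 0.25, adjusted p = 0.0778). The arrestin gene sagb, whose product shuts off the light response, had 2.71, 3.02 and 3.33 CPM at 35 μM, against 10.5, 9.21, 10.7 and 10.6 CPM in controls (-1.76 ± 0.39, adjusted p = 0.0994). The red cone opsin opn1lw2 averaged 1.64 CPM at 35 μM and 4.44 CPM in controls (-1.44, adjusted p = 0.201). The adjusted p-values of these genes miss the threshold. Outside the list, rs1a, whose human counterpart encodes the retinal adhesion protein retinoschisin, had 4.85, 2.0 and 1.47 CPM at 35 μM and 17.5, 20.6, 14.9 and 24.9 CPM in controls (-2.82 ± 0.60, adjusted p = 0.0796).

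The lens crystallin crygm2d11 gave the largest fold change of the DEGs. It had 1.03, 0.748 and 1.13 CPM in 35 μM embryos, against 23.9, 46.1, 32.1 and 23.7 CPM in controls, a 32.3-fold lower level (log2 fold change -5.01 ± 0.69, adjusted p = 0.0129). Gamma M crystallins are the main soluble proteins of the fish lens, and crygm2d11 belongs to a family of near-identical copies whose reads the authors' counting divides by a model, so single copies are less certain. Looking at the family after its values were seen, all 21 tested crygm2d genes had a negative log2 fold change, between -5.01 and -0.85 with a median of -1.23, and 18 had an unadjusted p under 0.05. Every one was lower in each exposed embryo than in each control. Over all genes, 4.47% were lower at an unadjusted p under 0.05 and 7.44% were below every control. Since reads are divided among near-identical copies, the 21 are not separate observations. Summed over the 21 copies, which does not depend on how reads are divided among them, the embryos at 35 μM had 2313.2, 4196.7 and 3712.3 CPM, against 6444.9, 8154.0, 8497.3 and 6662.5 CPM in the controls. The sum was lowest in exposed embryo 1, the embryo with few ribosomal protein reads. Without exposed embryo 1, 3 or 4 crygm2d11 was not a DEG, although its log2 fold change stayed between -5.14 and -4.77 with any of the 7 embryos left out. At 25 μM the summed level was 5807.8, 13556.9 and 1878.6 CPM in the 3 embryos, so 1 of them was above every control and 1 below every 35 μM embryo. The list of lens crystallin and lens fibre genes does not hold crygm2d11. Of its 33 tested genes, 9 (27.3%) were lower and none higher at an unadjusted p under 0.05. It had no DEG and a median of -0.78. Without exposed embryo 1, with or without control 4, 4 genes were lower. The 4 lens markers had a median of 0.18 and none at that level. One of them, CRYAA, alpha A crystallin, averaged 67.5 CPM at 35 μM and 46.6 CPM in controls (0.53 ± 0.29, adjusted p = 0.730).

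The lower DEGs also held 1 gene each for a protein known in mammals from cartilage, the inner ear and muscle. In whole embryos the tissue of the change was not measured. COL9A1, a chain of the cartilage collagen IX, had 51.5, 50.9 and 42.6 CPM in 35 μM embryos, against 91.9, 112.7, 108.7 and 133.0 CPM in controls (-1.21 ± 0.20, adjusted p = 0.0289). Its partner chain COL9A2 averaged 230.7 CPM at 35 μM and 335.7 CPM in controls (-0.54, adjusted p = 0.323). Among 44 collagen and matrix genes, 11 (25.0%, against 4.47% of all genes) were lower and none higher at an unadjusted p under 0.05. The list's median was -0.23. Without exposed embryo 4, 7 were lower, and 6 without exposed embryo 1 and control 4 or against the controls of the other dyes. COL10A1, named for the collagen of hypertrophic cartilage, had 75.6, 68.0 and 59.7 CPM at 35 μM and 106.4, 112.5, 133.6 and 175.4 CPM in controls (-0.96 ± 0.21, adjusted p = 0.0865). OTOS, otospiralin, an inner ear protein in mammals, had 1.62, 0.909 and 1.36 CPM in exposed embryos and 4.31, 4.01, 3.29 and 6.03 CPM in controls (-1.77 ± 0.30, adjusted p = 0.0333). The groups of both DEGs are well apart, although all values of OTOS are low.

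The muscle DEG was igfn1.3, related to a mammalian protein of the muscle Z-disc. Its level was 38.8, 32.4 and 48.2 CPM in 35 μM embryos, against 117.0, 138.4, 130.9 and 86.9 CPM in controls (-1.57 ± 0.28, adjusted p = 0.0362). Control embryo 4 was the lowest control. In the skeletal muscle list, 10 of 47 (21.3%, against 4.47% of all genes) were lower and none higher at an unadjusted p under 0.05. The log2 fold change was negative in 41 of the 47, and the median was -0.41. Without exposed embryo 4, 5 were lower, without control 4, 6, without exposed embryo 1 and control 4, 6, and against the controls of the other dyes 5. The parvalbumin pvalb1, a calcium buffer of fast fibres, had 1448.8, 1803.5 and 1519.2 CPM at 35 μM and 3015.0, 3089.2, 3025.5 and 4796.0 CPM in controls (-1.13 ± 0.32, adjusted p = 0.224). The troponin I gene TNNI2 with the lowest p had 64.8, 80.2 and 83.4 CPM in exposed embryos, against 154.7, 153.4, 147.9 and 171.5 CPM in controls (-1.04 ± 0.29, adjusted p = 0.210). No gene of the 25 in the heart list was lower at an unadjusted p under 0.05, and 1 (4%, against 3.53% of all genes) was higher. The log2 fold change was negative in 18 of the 25, with a median of -0.21. GATA6, a cardiac transcription factor, had 0.41 ± 0.19 (adjusted p = 0.607). The 5 tested heart markers, none of which reached that unadjusted p, summed to 193.4 to 221.0 CPM at 35 μM and 242.6 to 260.7 CPM in controls.

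The other 6 lower DEGs do not share a known tissue. KLF11, a transcription factor of the Krüppel-like family, had 27.1 to 30.8 CPM in the 35 μM embryos and 44.6, 50.8, 48.3 and 52.5 CPM in controls (-0.76 ± 0.14, adjusted p = 0.0415), the smallest change of the 17. Levels of samsn1a, an adaptor with SAM and SH3 domains, were 11.9, 9.51 and 8.31 CPM at 35 μM and 21.2, 22.6, 22.1 and 26.3 CPM in controls (-1.22 ± 0.21, adjusted p = 0.0333). Those of pcp4l1 were 4.6 to 5.82 CPM at 35 μM, against 12.7 to 16.5 CPM in controls (-1.46 ± 0.25, adjusted p = 0.0345). In each of these 3 genes every exposed embryo was below every control, as in 7.44% of all genes. The level of lactbl1a was 0.323, 0.267 and 0.204 CPM in exposed embryos, or 10, 10 and 9 estimated counts, and 2.4, 2.17, 2.04 and 2.12 CPM in controls (-3.04 ± 0.49, adjusted p = 0.0252). The pair of clone-named genes, si:dkey-57a22.15 (-2.60 ± 0.43, adjusted p = 0.0252) and si:ch211-255g12.6 (-2.46 ± 0.39, adjusted p = 0.0252), averaged 2.53 and 4.17 CPM at 35 μM and 15.3 and 22.9 CPM in controls.

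Among the DEGs, a pair of ion transport genes rose most. The sodium pump gene atp1a1a.5, one of a cluster of alpha subunit copies, had 14.3, 17.6 and 18.3 CPM in the 35 μM embryos, against 5.30, 5.44, 3.85 and 3.33 CPM in the controls (1.90 ± 0.31, adjusted p = 0.0252). This is a 3.73-fold higher level, and the lowest exposed embryo stood well above the highest control. The cotransporter gene slc12a10.3, of the sodium chloride cotransporter family, had 5.01, 3.45 and 5.46 CPM at 35 μM and 2.2, 1.46, 1.15 and 1.31 CPM in controls (1.6 ± 0.28, adjusted p = 0.0362). Neighbouring copies had other values. The copy atp1a1a.3 averaged 45.3 CPM at 35 μM and 34.5 CPM in controls (0.39, adjusted p = 0.771), and slc12a10.2 36.8 and 21.9 CPM (0.75, adjusted p = 0.655). The whole list of 48 sodium, potassium and ionocyte genes held both DEGs and no lower one, but its median was -0.02. Equal numbers, 3 each (6.25%), were higher and lower at an unadjusted p under 0.05, as 3.53% and 4.47% of all genes were. Without exposed embryo 1 or control 2, 5 were higher. One of the lower ones was ATP1B2, a pump beta subunit, with 8.44, 8.15 and 8.34 CPM in exposed embryos and 12.5, 13.9, 14.7 and 17.9 CPM in controls (-0.83 ± 0.18, adjusted p = 0.0990).

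Genes of dividing cells made up the rest of the higher DEGs. The proliferation marker mki67 had 1685.4, 1663.3 and 1809.7 CPM in the 35 μM embryos, against 1078.0, 980.1, 1023.3 and 865.6 CPM in the controls (0.80 ± 0.15, adjusted p = 0.0416). The kinetochore scaffold knl1 had 179.8, 194.3 and 201.1 CPM at 35 μM and 107.6, 108.3, 112.6 and 111.0 CPM in controls (0.80 ± 0.13, adjusted p = 0.0252). Both were 1.74-fold higher. In the cell division list, 8 of 51 (15.7%, against 3.53% of all genes) were higher and none lower at an unadjusted p under 0.05. The log2 fold change was positive in 47 of the 51, and the median was 0.26. The number of higher genes was 5 without exposed embryo 3, 10 without exposed embryo 1 and control 4, and 7 against the controls of the other dyes. E2F8, a transcriptional repressor, averaged 58.7 CPM at 35 μM and 36.0 CPM in controls (0.71 ± 0.15, adjusted p = 0.0782), and TK1, thymidine kinase of S phase, 84.7 and 46.7 CPM (0.86 ± 0.24, adjusted p = 0.222).

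Among 61 DNA damage repair genes, 12 (19.7%, against 3.53% of all genes) were higher and 1 lower at an unadjusted p under 0.05. The list had no DEG and a median of 0.29. The number of higher genes was 6 without exposed embryo 3, 13 without exposed embryo 1 and control 4, and 3 against the controls of the other dyes, where the median was 0.08. The helicase gene blm had 34.6, 37.7 and 43.0 CPM in exposed embryos, against 25.8, 24.1, 23.9 and 14.8 CPM in controls (0.79 ± 0.19, adjusted p = 0.139). Of the genes given in every case, the ubiquitin ligase gene mdm2 had 86.4, 73.3 and 74.5 CPM in exposed embryos, against 55.9, 42.7, 47.1 and 60.2 CPM in controls (0.60 ± 0.16, adjusted p = 0.198). The cell cycle inhibitor cdkn1a had 4.17, 4.06 and 4.46 CPM in exposed embryos and 3.18, 1.90, 1.87 and 1.75 CPM in controls (0.96 ± 0.36, adjusted p = 0.448). In blm, mdm2 and cdkn1a every exposed embryo was above every control, as in 5.64% of all genes, and none was a DEG. Against the controls of the other dyes the log2 difference was 0.03 ± 0.35 for mdm2 and -0.17 ± 0.55 for cdkn1a.

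**Figure D2:**
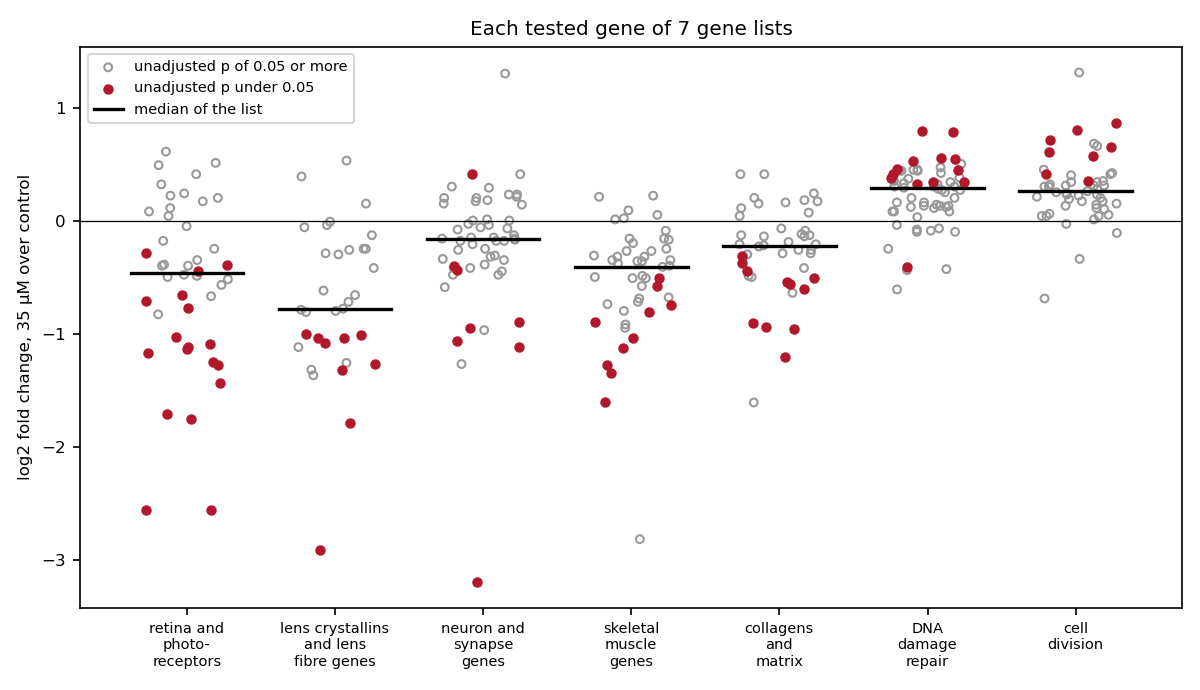
Log2 fold change of each tested gene of 7 lists, 35 μM over control, with filled points for an unadjusted p under 0.05 and a line at the list's median. Medians are between -0.78 and -0.17 for the retina, lens, neuron, muscle and matrix lists and 0.29 and 0.26 for the DNA repair and cell division lists.

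No nerve or glia gene of the lists was a DEG. Of 54 neuron and synapse genes, 7 (13.0%) were lower and 1 (1.85%) higher at an unadjusted p under 0.05, and the median was -0.17. Over all genes the shares were 4.47% lower and 3.53% higher. The calretinin gene calb2b, a calcium buffer of interneurons, had 44.9, 50.8 and 44.5 CPM in 35 μM embryos and 90.2, 91.3, 88.0 and 93.1 CPM in controls (-0.95 ± 0.21, adjusted p = 0.0886). SNAP25, a membrane fusion protein of synapses, had 29.6, 30.9 and 27.1 CPM at 35 μM, against 44.1, 43.5, 57.0 and 72.6 CPM in controls (-0.90 ± 0.23, adjusted p = 0.168). Neural transcription factors had 9 of 59 lower (15.3%), 2 higher and a median of -0.01, with the lowest p in FEZF2 of the forebrain (-1.03 ± 0.21, adjusted p = 0.0782). The direction of this list was not stable, since without control 4 it had 5 lower and 8 higher, and against the controls of the other dyes 1 lower and 8 higher, with a median of 0.15. Without exposed embryo 1 or 4, 5 and 4 were lower. Of 24 myelin and glia genes, 6 (25.0%) were lower and 1 higher, with a median of -0.04, and 3 were lower without exposed embryo 1. The claudin of myelin, cldnk, had 0.452, 0.508 and 0.498 CPM in exposed embryos and 2.2, 1.49, 1.33 and 1.08 CPM in controls (-1.64 ± 0.37, adjusted p = 0.103).

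The genes that sense and clear foreign compounds did not pass the test. The aryl hydrocarbon receptor list had 3 of 16 lower (18.8%, against 4.47% of all genes) and none higher at an unadjusted p under 0.05. Its median was -0.21, but 1 gene was lower without exposed embryo 4 or without control 4. CYP1A1, the name given to cyp1a, the main target of the aryl hydrocarbon receptor, had 17.5, 27.9 and 19.1 CPM in 35 μM embryos, within the controls' 51.0, 45.7, 5.57 and 5.08 CPM (-0.32 ± 0.68, adjusted p = 0.953). The controls alone spanned a 10-fold range. CYP1B1 averaged 14.9 CPM at 35 μM and 10.0 CPM in controls (0.58 ± 0.39, adjusted p = 0.811), and cyp1c1 23.9 and 27.8 CPM (-0.22 ± 0.40, adjusted p = 0.949). None of 23 conjugating enzymes and none of 16 glutathione S-transferases reached an unadjusted p under 0.05. Of the antioxidant genes driven by Nrf2, NQO1 had -0.07 ± 0.16 (adjusted p = 0.957), HMOX1 -0.26 ± 0.30 (adjusted p = 0.910) and GCLM -0.03 ± 0.41 (adjusted p = 0.995). The heat shock gene hsp70l averaged 1.41 CPM at 35 μM and 2.35 CPM in controls (-0.74 ± 0.56, adjusted p = 0.832). The natriuretic peptide nppa, a heart gene, averaged 21.5 CPM and 33.6 CPM (-0.65 ± 0.38, adjusted p = 0.756).

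Of the other lists, interferon response genes had 3 of 23 higher (13.0%, against 3.53% of all genes) and none lower at an unadjusted p under 0.05. Without exposed embryo 1 only 1 was higher, and against the controls of the other dyes the list's median was -0.22, beside 0.21 here. Yolk and lipid genes had 7 of 46 lower (15.2%, against 4.47% of all genes) and 2 higher. They had 3 lower and 3 higher without exposed embryo 1, 4 and 2 without control 4, 2 and 3 without both, and 1 and 2 against the controls of the other dyes. Epithelium had 6 of 41 lower (14.6%) and 1 higher, but 2 and 2 without exposed embryo 1 and control 4. Glycolysis had 5 of 39 lower (12.8%) and none higher, but 3 lower without those embryos and 2 against the controls of the other dyes. AP-1 and immediate early genes had 6 of 42 lower (14.3%), with KLF11 the only DEG, and none higher, but 3 lower without exposed embryo 1 or 4 and 2 without exposed embryo 1 and control 4. The 13 mitochondrially encoded genes had none at that level.

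**Figure D3:**
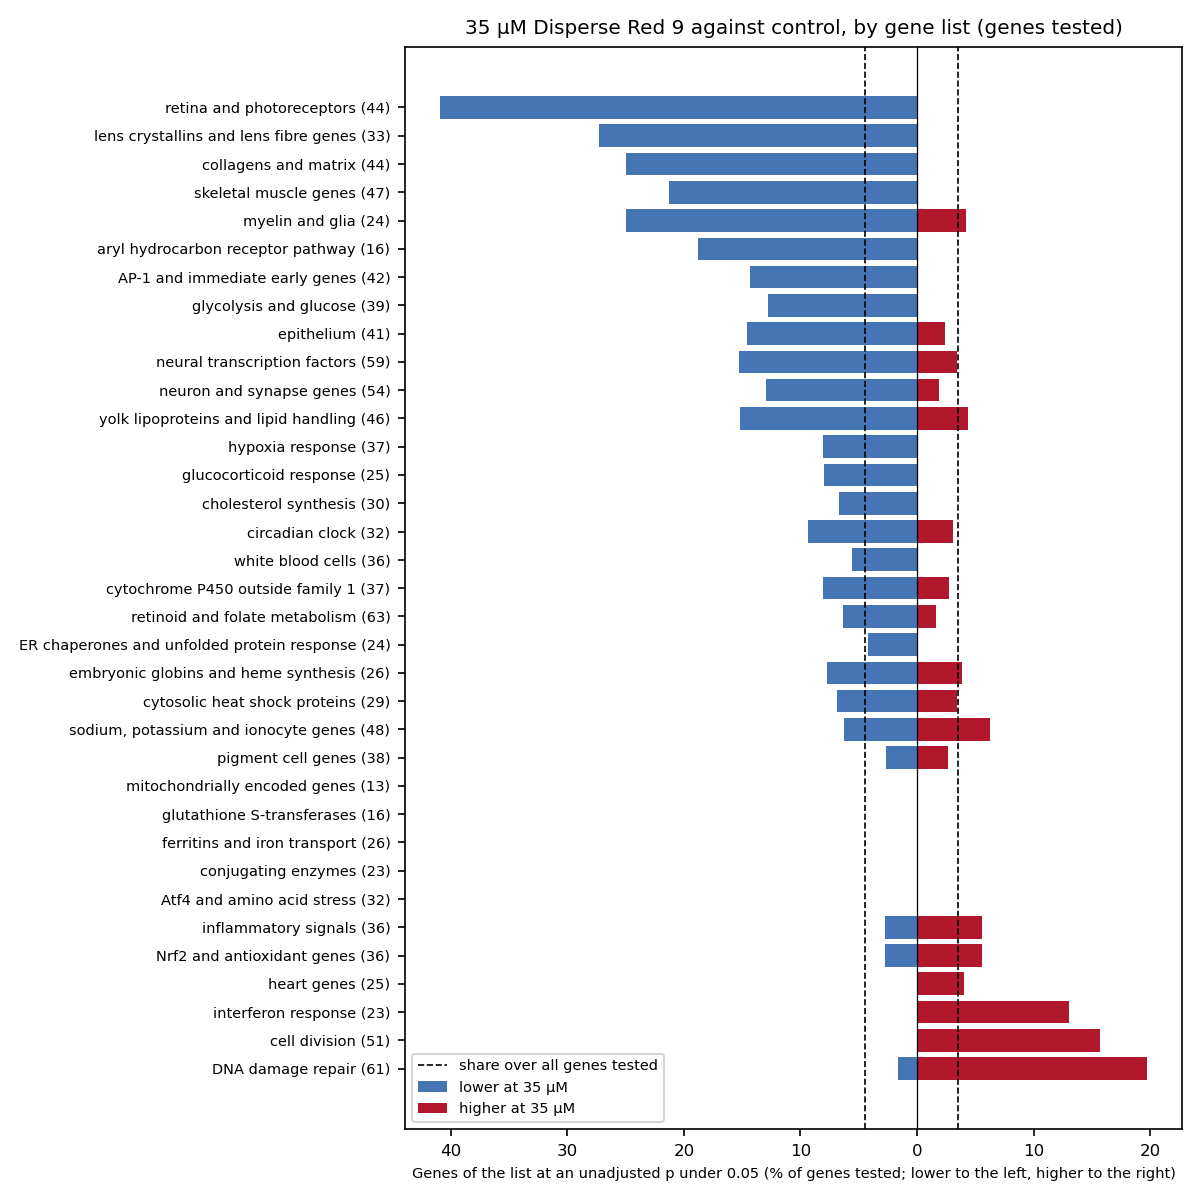
Share of the tested genes of each of 35 gene lists that had an unadjusted p under 0.05, lower at 35 μM to the left and higher to the right, with the number of genes tested in parentheses and dashed lines at the shares over all genes (4.47% lower, 3.53% higher). The retina list extends farthest to the left with 40.9% and the DNA damage repair list farthest to the right with 19.7%.

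Beyond the DEGs, 417 named genes had an unadjusted p under 0.01, no overlap between the groups and a mean of at least 1 CPM in the higher group, 173 of them higher and 244 lower. Of these, nrn1lb, related to the neurite growth factor neuritin, had the largest negative log2 fold change, with 0.162, 0.134 and 0.0227 CPM in 35 μM embryos (5, 5 and 1 estimated counts), against 1.63, 1.52, 1.45 and 1.72 CPM in controls (-3.90 ± 0.87, adjusted p = 0.0994). The matrix gene pcolceb, an enhancer of procollagen processing, averaged 0.0911 CPM at 35 μM and 1.01 CPM in controls (-3.43 ± 0.74, adjusted p = 0.0866). FKBP5, a chaperone induced by glucocorticoids, had 0.937, 2.49 and 1.34 CPM in exposed embryos and 13.3, 13.3, 6.23 and 3.40 CPM in controls (-2.51 ± 0.57, adjusted p = 0.103). The 10 largest negative values also held CKMT2, a mitochondrial creatine kinase, which averaged 0.898 CPM at 35 μM and 5.30 CPM in controls (-2.55, adjusted p = 0.103), and fabp10a, the liver fatty acid binding protein, 0.280 and 1.76 CPM (-2.62, adjusted p = 0.290). The others were si:ch211-250g4.3 (-3.11), rs1a, slc1a8a of the glutamate transporters (-2.64), the second copy of GNGT2 (-2.56) and the keratin krt1-19d (-2.37).

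The 10 largest positive log2 fold changes among the genes that were not DEGs began with si:dkey-9c18.3, at 1.07, 2.08 and 0.385 CPM in exposed embryos, against 0.0517, 0.0271, 0 and 0.101 CPM in controls, where it had at most 3 estimated counts (4.69 ± 1.2, adjusted p = 0.167). The adhesion receptor gene adgre9 had 3.49, 3.77 and 0.657 CPM at 35 μM and 0.284, 0.217, 0.221 and 0.135 CPM in controls (3.58 ± 0.91, adjusted p = 0.165). The yolk precursor vtg1 had 2.94, 6.49 and 4.24 CPM, against 0.362, 2.33, 0.344 and 0.202 CPM in controls (2.48 ± 0.69, adjusted p = 0.212). In each of them the exposed embryos spread widely. With all libraries scaled together, the highest of the 18 controls of the series had 1.56, 4.42 and 62.2 CPM of these 3 genes. The lowest 35 μM embryo had 0.382, 0.652 and 3.05 CPM. Against the controls of the other dyes, the log2 difference at 35 μM was 2.24 ± 0.85, 1.81 ± 0.90 and -0.94 ± 1.54. That of the Disperse Red 9 controls was -2.46 ± 1.19, -1.82 ± 1.08 and -3.44 ± 1.65. Among well expressed genes, ZNF644 averaged 125.9 CPM at 35 μM and 35.1 CPM in controls (1.84 ± 0.58, adjusted p = 0.302) and the galectin lgals1l1 315.1 and 100.9 CPM (1.64 ± 0.48, adjusted p = 0.254). The class I antigen gene mhc1uba had 12.7, 9.19 and 12.9 CPM in exposed embryos and 0.697, 3.44, 5.94 and 5.02 CPM in controls (1.62 ± 0.52, adjusted p = 0.318).

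The other concentrations were set against the same 4 controls, so their values are given side by side. The DEGs were chosen by their difference from these controls. Their values at other concentrations are therefore not independent of that choice and lean the same way. For the 13 lower DEGs the median log2 fold change over control was -0.69 at 10 μM, -1.45 at 25 μM, -1.77 at 35 μM, -2.03 at 45 μM and -1.97 at 55 μM. For the 4 higher DEGs it was 0.66, 1.04, 1.2, 1.15 and 1.08 in the same order. The 10 and 25 μM libraries carry the second index of the controls, so these 2 comparisons are within 1 index. They still share the controls by which the DEGs were chosen. At 25 μM the lower DEGs were between -3.71 and -0.62 and the higher ones between 0.58 and 1.52. No gene was a DEG at 10 or 25 μM in edgeR's test (867 and 1250 genes had an unadjusted p under 0.05). The group means of GNB3 were 56.7 CPM at 10 μM, 29.4 at 25 μM, 18.3 at 35 μM, 16.5 at 45 μM and 16.6 at 55 μM, against 107.6 CPM in controls. The log2 fold changes of atp1a1a.5 over control were 1.09, 1.43, 1.90, 1.37 and 1.34 from 10 to 55 μM.

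**Figure D4:**
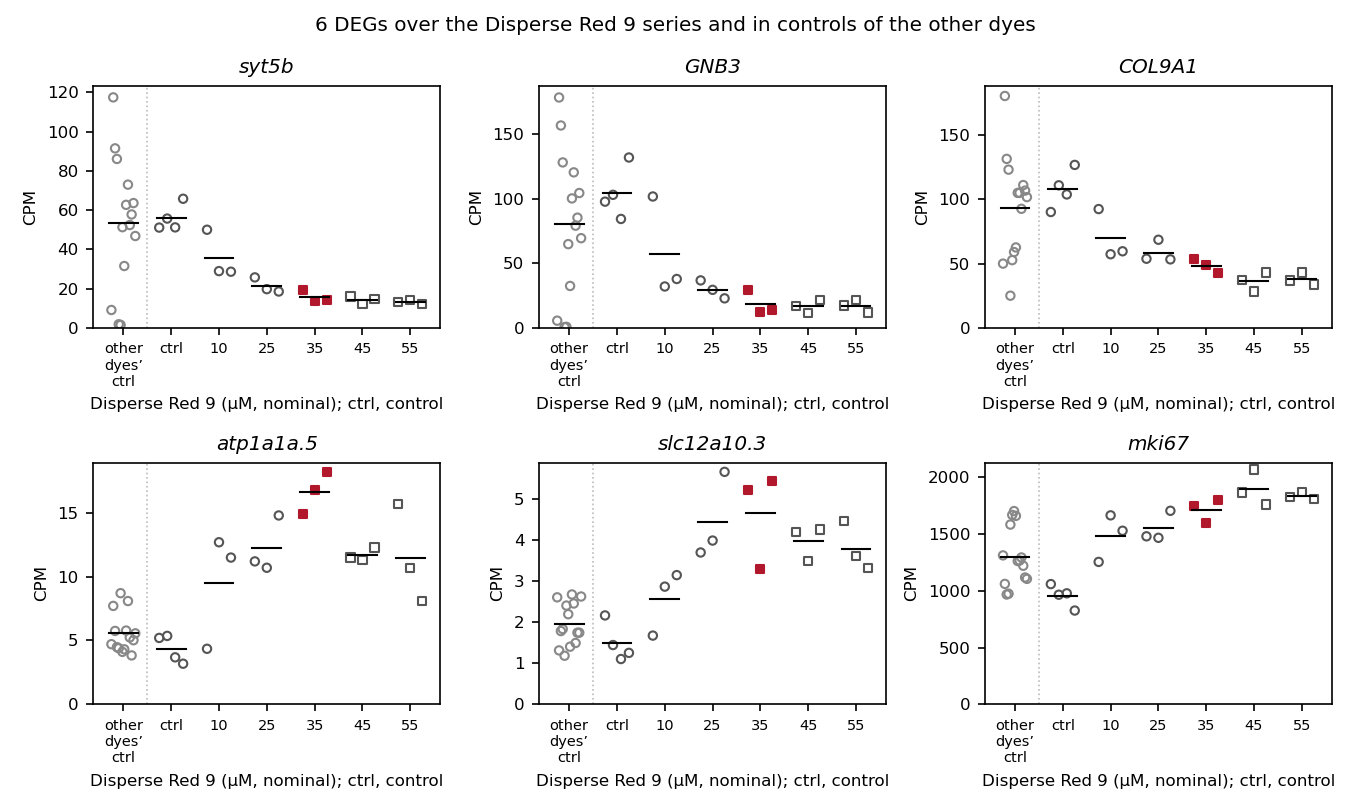
Level in CPM of 6 DEGs in each embryo of the Disperse Red 9 control, 10, 25, 35, 45 and 55 μM groups, with the 14 controls of the other dyes at the left, all scaled together. Filled squares are the 35 μM embryos, squares mark the libraries with the second index of the 3 highest concentrations, circles all others, and lines the group means; the 35 μM embryos of atp1a1a.5 and slc12a10.3 are above every control, while in syt5b, GNB3 and COL9A1 some controls of other dyes are as low.

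A comparison whose group means use none of the 7 embryos is that of 45 and 55 μM with 10 and 25 μM. No gene was a DEG in it (0% of genes; 1199 genes at an unadjusted p under 0.05 in edgeR's test, and 36 DEGs by DESeq2). In these other embryos all 13 lower DEGs were lower at an unadjusted p under 0.05, as 4.72% of all genes were, with log2 fold changes between -2.23 and -0.40. Of the 4 higher DEGs, knl1 (log2 fold change 0.28) and mki67 (0.29) were higher at that level, as 1.99% of all genes were. Those of atp1a1a.5 (0.10) and slc12a10.3 (0.20) did not reach it. The concentrations compared here also differ in the second index. The test came from the same fit, so its filter and its estimate of spread did use the 7 embryos. The DEGs were chosen by low p-values from that fit. Their p-values here are therefore not independent of that choice, and only the fold changes rest on other embryos.

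Between neighbouring concentrations no gene passed the test. Of 35 μM against 25 μM, edgeR gave 0 DEGs (0% of genes, lowest adjusted p 0.913), DESeq2 gave 6, and 539 genes (3.02%) were lower and 101 (0.565%) higher at an unadjusted p under 0.05. At that level 4 of the 17 genes were lower at 35 μM than at 25 μM, namely pcp4l1 (-0.70 ± 0.26), si:dkey-57a22.15 (-1.01 ± 0.43), si:ch211-255g12.6 (-0.92 ± 0.39) and samsn1a (-0.50 ± 0.22). Of 45 μM against 35 μM, whose libraries share the second index, edgeR gave 0 DEGs (0% of genes) and 236 genes had an unadjusted p under 0.05, while DESeq2 gave 3. Of the 17 genes only si:ch211-255g12.6 reached that level, with -1.11 ± 0.40. The list medians at 25 and 35 μM were -0.24 and -0.47 for the retina, -0.27 and -0.23 for collagens and matrix, 0.10 and -0.78 for the lens and -0.07 and -0.41 for skeletal muscle. The 25 μM medians rest on embryos of very different makeup, since ribosomal protein genes took 3.60%, 11.3% and 1.23% of their CPM.

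The controls of the other 4 dyes, 14 embryos of the same strain, age and solvent level, divided the 17 DEGs. Their second indexes differ from those of the 35 μM libraries and of the Disperse Red 9 controls. In comparisons of 35 μM with these 14, index and exposure therefore cannot be told apart. For each of the 13 lower DEGs, 3 or 4 of the 14 were as low as the 35 μM embryos or lower. Controls 1 and 2 of Solvent Red 169 were among them for all 13 and control 1 of Disperse Blue 14 for 12, all but KLF11. With all libraries scaled together, these 3 unexposed embryos had 1.79, 1.46 and 9.07 CPM of syt5b, against 13.6 to 19.5 CPM in the 35 μM embryos and 31.5 to 117.5 CPM in the other 11. The summed crygm2d level was 1788.6, 2444.2 and 3359.5 CPM in the same embryos. Of the cell division DEGs, knl1 was as high in 2 and mki67 in 3 of the 14, all controls of Solvent Red 169. Only atp1a1a.5 and slc12a10.3 were higher in every 35 μM embryo than in any of the 18 controls of the series, as were 28 (0.157%) of 17863 genes, while 21 (0.118%) were below every control. The highest of the 18 controls had 8.71 CPM of atp1a1a.5 and 2.67 CPM of slc12a10.3, with the lowest 35 μM embryo at 14.9 and 3.30 CPM.

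Set against the 14 controls of the other dyes in edgeR's test, 5 genes were DEGs at 35 μM. These were atp1a1a.5 (1.58 ± 0.23, adjusted p = 9.44e-04), slc12a10.3 (1.25 ± 0.23, adjusted p = 0.0236), npvf, a neuropeptide of the hypothalamus (1.65 ± 0.23, adjusted p = 9.44e-04), ppp1r3c2b, a subunit that directs a phosphatase to glycogen (1.24 ± 0.23, adjusted p = 0.0236), and si:dkey-9l20.3, the only lower one (-1.41 ± 0.26, adjusted p = 0.0236). None of the 13 lower DEGs passed. All 17 genes kept their direction, but they had been chosen with the same 35 μM embryos. Against the controls of its own dye, npvf averaged 9.30 CPM at 35 μM and 4.63 CPM in controls (1.01, adjusted p = 0.0796). The controls of Disperse Red 9 themselves had 0 DEGs against the other 14 in edgeR's test (1679 genes had an unadjusted p under 0.05). Among these were 3 of the 17, since the Disperse Red 9 controls had less mki67 (log2 difference -0.44) and knl1 (-0.37) and more KLF11 (0.47) than the other controls.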

How the data were processed

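RNA of single embryos was poly-A selected and sequenced. Per the labels and methods, the authors trimmed reads with Trim Galore 0.6.5, quantified them with Salmon 1.1.0 (GRCz11) and used tximport to bring transcripts to gene level. The deposited estimated counts are not normalized, and 62.2% of the values are whole. The deposited log2 CPM, which the authors scaled for library size and gene length, have no gene identifiers and served 1 alternative only.

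Estimated counts were rounded. All 19 Disperse Red 9 embryos entered 1 fit in R 4.3.3 with edgeR 4.0.16 (TMM, filterByExpr, quasi-likelihood F test with legacy=TRUE), which gave all adjusted p-values unless another tool is named. Of the 19913 genes listed, 17869 passed the filter. Alternatives were DESeq2 1.42.0, limma 3.58.1, other scaling, filters and controls, a replicate block and embryos left out. The fit was tested on simulated counts. SE is the log2 fold change divided by the root of F.

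The comparison, the members and the 36 gene lists (1656 symbols, 1351 matched) were chosen with earlier results of these data known. Named genes were all DEGs, the 10 largest rises and falls among other genes with an unadjusted p under 0.01 and groups apart, up to 3 genes of lowest p per list, and 14 fixed genes; some of these and 1 list are not reported here, and crygm2d copies, npvf and other genes named beside them were chosen after their values were seen. Symbols came from a table that covers 19164 genes, gives many zebrafish genes the symbol of the human gene, and repeats 2454. No coordinates or sequences are given. Labels do not say whether embryos of a group came from separate clutches or plates, so p-values measure the spread between these embryos.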

Additional observations from a re-analysis of the deposited data

Results flagged for a closer look

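Dixon's ratio was computed over the 4 controls for the 17 DEGs, the 20 largest changes among other genes and the total count, 38 sets in all, and chance passes about 1 set in 20. In 2 sets the highest control lay apart from the other controls, and in both it was control 2. The yolk precursor vtg1 had 2.33 CPM there, against 0.202 to 0.362 CPM in the other controls, and the fatty acid binding protein fabp10a had 2.55 CPM, against 1.47 to 1.52 CPM.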

How the results depend on the processing

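The count of DEGs at 35 μM was 17, and it was 16 with median-ratio size factors, 15 without a filter, 17 with at least 10 counts in every embryo, 21 with legacy=FALSE and 21 with limma on the deposited log2 CPM. It moved to 224 with DESeq2, 34 in a fit of the 35 μM and control embryos only, 5 against the controls of the other dyes and 2 with a replicate block (syt5b and crygm2d11). With an embryo left out it was 0 to 10. After the data were seen it was also computed without 35 μM embryo 1 and control 4 (1 DEG) and without 25 μM embryos 3 and 4 (149). All 17 genes kept their direction in all of these fits that tested them. With embryos left out that direction could hardly turn, since the groups of these genes do not overlap. The adjusted p-values of the 17 genes over the fits reached 0.236 to 0.992 at the highest. The labels do not say whether equal replicate numbers mark pairs of embryos. Deviations from the group means of 35 μM and control embryos of the same number correlated with r of -0.381, -0.027 and -0.770 (numbers 1, 3 and 4) over 15317 genes. Between embryos of different numbers r was between -0.501 and 0.714. With so wide a range for any pairing, these values cannot tell whether a number marks a shared clutch or plate.

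For 35 μM against 25 μM the count of 0 became 6 with DESeq2, for 45 against 35 μM it became 3, and for 45 and 55 against 10 and 25 μM 36. The last was 0 to 8 with an embryo left out (8 without 25 μM embryo 4, all lower) and 3 without 25 μM embryos 3 and 4. All other fits of these 3 comparisons gave 0.

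With 3 embryos against 4, a gene that missed the threshold is not shown to be unchanged. The excess of lower over higher genes at an unadjusted p under 0.05 turned under 5 settings given beside that result, TMM-scaled fits among them.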
